A study of Homo sapiens with 6 samples.

Results

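Structural and small nucleolar RNAs are the noncoding RNAs that cut, modify, splice and carry other RNAs or proteins. They were measured here in TT cells, a human line from medullary thyroid carcinoma, a tumor that arises from C cells, the thyroid cells that secrete calcitonin. Members were all array probes whose gene symbol, in its current or an older form, begins with RN7S, RNA5S, RNA18S, RNA28S, RNA45S, RNY, RNU, SNORA, SNORD, SCARNA or VTRNA, or is RMRP or RPPH1, with the host genes of small nucleolar RNAs left out. This gave 338 probes for 331 RNAs among 47317 probes with values. Of these probes, 3 matched through an older name only (TERC, RNVU1-18 and RNVU1-7).

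TT cells in 3 groups were set against each other, with 2 arrays in each. The first had been treated with 10 μM Y15, which acts on the autophosphorylation site of focal adhesion kinase (FAK), and the next with 10 μM PF-04554878 (defactinib), an inhibitor of FAK kinase activity. The last group was labelled untreated, and no vehicle is named for it, whereas PBS was the solvent of Y15 and DMSO that of PF-04554878, so solvent and compound cannot be told apart. Plates were treated in duplicate for about a day. The labels do not say that each array came from its own plate, so p-values measure the spread between these arrays, which may be technical. In a bulk sample, fewer cells of a type and less RNA per cell cannot be told apart.

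The values are log2 bead signals after quantile normalization, and a probe was kept if it was detected (detection p-value under 0.01) on 2 or more of the 6 arrays. Between 15215 and 18488 probes per array were detected. Before normalization the mean signal was 263 and 273 on the Y15 arrays, 359 and 348 on the PF-04554878 arrays and 539 and 468 on the untreated arrays, and the part of this difference in the results below was not tested. Of 14 C-cell and neuroendocrine markers, 13 had a kept probe, with CALCA, which codes for calcitonin, at a mean log2 signal of 13.67 in Y15 cells, 13.68 in PF-04554878 cells and 13.77 in untreated cells. Of 7 follicular thyroid markers only DIO1 had one. Where each array was instead scaled by its median signal over all probes (median scaling), the middle log2 change of all kept probes was -0.67 under Y15 and -0.45 under PF-04554878, in place of -0.05 and -0.01. With the median taken over kept probes, which was tried after the data had been seen, it was 0.14 and 0.31.

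Small nucleolar RNAs (snoRNAs) pair with ribosomal RNA and guide its modification. C/D snoRNAs guide methylation of the ribose, and H/ACA snoRNAs guide the conversion of uridine to pseudouridine. Small Cajal body RNAs (scaRNAs) do the same for the small nuclear RNAs (snRNAs) of the spliceosome. Most human snoRNAs are trimmed out of introns of a host gene and so depend on the promoter of that host, while 7SK RNA, 7SL RNA, 5S ribosomal RNA, the Y and vault RNAs, U6 snRNA and the RNA of RNase P have their own promoters and are made by RNA polymerase III. Most of these RNAs end without the long poly(A) tail from which the labelling kit primes, and the array does not tell a mature RNA from a precursor or a tailed form.

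The sequences of the members themselves are not printed here. Shown instead are the start regions of 4 host genes whose snoRNAs are compared further on, because snoRNAs within 1 host share 1 such region. Each window runs from 50 bases before to 15 bases after the annotated start in the RefSeq promoter table (GRCh38.p14), on the strand of the gene. Capitals mark the longest unbroken run of C or T that touches the 15 bases to either side of the start, or both runs where 2 tie.
TAF1D (chr11:93741481-93741545, minus strand): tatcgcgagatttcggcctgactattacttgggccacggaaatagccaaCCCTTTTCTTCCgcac
HSPA8 (chr11:123062122-123062186, minus strand): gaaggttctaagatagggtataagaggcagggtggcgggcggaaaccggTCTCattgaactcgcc
SNHG12 (chr1:28581859-28581923, minus strand): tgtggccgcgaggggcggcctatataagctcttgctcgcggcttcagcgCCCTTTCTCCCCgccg
SNHG1 (chr11:62855871-62855935, minus strand): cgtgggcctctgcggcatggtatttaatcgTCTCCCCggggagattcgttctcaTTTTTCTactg
The run was 12 bases in TAF1D and in SNHG12, 7 in SNHG1, which had 2 of that length, and 4 in HSPA8. A run of at least 7 bases stood there in 26.7% of the 35116 promoters in the table. Transcripts that begin with such a run are a known mark of host genes and ribosomal protein genes, and a match here is a description of letters only.

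Of the 338 member probes, 135 were kept, for 130 RNAs, which is 39.9% of member probes, the same percentage as among all probes. All 3 probes of 7SK and 7SL RNA, all 4 of ribosomal RNA and all 4 of Y RNA were kept, as were 12 of 15 for snRNAs. Among the guides, 47 of 102 H/ACA probes, 55 of 180 C/D probes and 7 of 25 scaRNA probes were kept. Not kept were RMRP, the RNA of RNase MRP, VTRNA2-1, RNU2-1, RNU5A-1, RNU5D-1, 18 scaRNA probes, 55 H/ACA probes and 125 C/D probes, and 186 of these 203 were detected on no array. The kept guides were dim, with a median log2 signal of 7.19 for H/ACA and 7.17 for C/D snoRNAs against 7.75 for all kept probes, so that changes near the background are understated on this scale. A probe seen in only 1 group had to differ between groups to be kept, and counts over kept probes are read only beside the same counts over all kept probes. Of the 135, 68 were detected on all 6 arrays.

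Among the kept members, rises outnumbered falls under either compound. A probe passed when its Benjamini-Hochberg adjusted p in limma was below 0.05 over all 18876 kept probes and its change at least 1.2-fold. Under Y15, 52 of 135 member probes were higher than in untreated cells (38.5%, with 16% of all kept probes called higher) and 10 were lower (7.41%, with 20.4% of all called lower). Under PF-04554878, 63 were higher (46.7%, with 28.2% of all) and 12 were lower (8.89%, with 29.8% of all). At 2-fold or more, 20 member probes were higher under Y15 (3.05% of all kept probes were) and 1 was lower (1.34% of all). For PF-04554878 the counts at 2-fold were also 20 higher (6.62% of all) and 1 lower (7.46% of all). Both comparisons share the untreated arrays. With median scaling, which moved all probes down, 24 of the 135 were higher and 36 lower under Y15 (3.82% and 73.9% of all kept probes), and 42 were higher and 35 lower under PF-04554878 (8.55% and 59.1% of all). Among the 68 probes detected on all 6 arrays, 37 were higher and 6 lower under Y15 (19.1% and 22.3% of all such probes), and 38 were higher and 6 lower under PF-04554878 (33.4% and 30.6%). The count of falls rested on single arrays, as it was 5 under Y15 without untreated array 1, 4 without either Y15 array, and 7 under PF-04554878 without PF-04554878 array 2.

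Set directly against PF-04554878, Y15 gave neither direction a larger share than elsewhere on the array. Of the 135 member probes, 32 were higher (23.7%, with 27.8% of all kept probes) and 39 were lower (28.9%, with 28.9% of all). At 2-fold, 7 were higher (6.98% of all) and 5 lower (6.08% of all). With median scaling 18 were higher (16.7% of all) and 35 lower (28.7% of all), and among probes detected on all 6 arrays 17 were higher (29.6% of all such probes) and 15 lower (32.2%). The median log2 difference, Y15 minus PF-04554878, was 1.19 for 7SK and 7SL RNA and 0.53 for Y RNA. It was -0.96 for vault RNAs, -0.51 for the RNA of RNase P, -0.25 for snRNAs, -0.24 for ribosomal RNA, -0.20 for scaRNAs, -0.08 for H/ACA and 0.05 for C/D snoRNAs, against -0.00 for all kept probes. The median of 7SK and 7SL RNA is that of an RN7SK probe, as RN7SL1 differed by 0.16 and did not pass. The Y RNAs ran from -0.99 to 1.30.

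The classes differed in size of change. The median log2 change under Y15 was 3.08 for the 3 probes of 7SK and 7SL RNA, 1.64 for ribosomal RNA, 1.17 for Y RNA, 0.58 for snRNAs and 0.42 for the 1 probe of RNase P RNA. It was 0.13 for H/ACA snoRNAs, 0.19 for C/D snoRNAs, 0.04 for vault RNAs and -0.01 for scaRNAs, against -0.05 for all kept probes. Under PF-04554878 it was 1.89 for 7SK and 7SL RNA, 1.75 for ribosomal RNA, 0.99 for vault RNAs, 0.97 for snRNAs, 0.93 for RNase P RNA and 0.87 for Y RNA. The guides again lay close to 0, at 0.29 for scaRNAs, 0.15 for H/ACA and 0.14 for C/D snoRNAs, against -0.01 for all kept probes. Median scaling turned the H/ACA median to -0.06 and the C/D median to -0.06 under Y15, which are 0.60 and 0.61 above the median of all kept probes on that scale, and to -0.06 and -0.07 under PF-04554878, which are 0.39 and 0.38 above it. With median scaling the medians under Y15 were 2.37 for 7SK and 7SL RNA, 0.49 for ribosomal RNA, 0.30 for Y RNA and 0.16 for snRNAs, and under PF-04554878 they were 1.43, 1.17, 0.02 and 0.59.

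**Figure D1:**
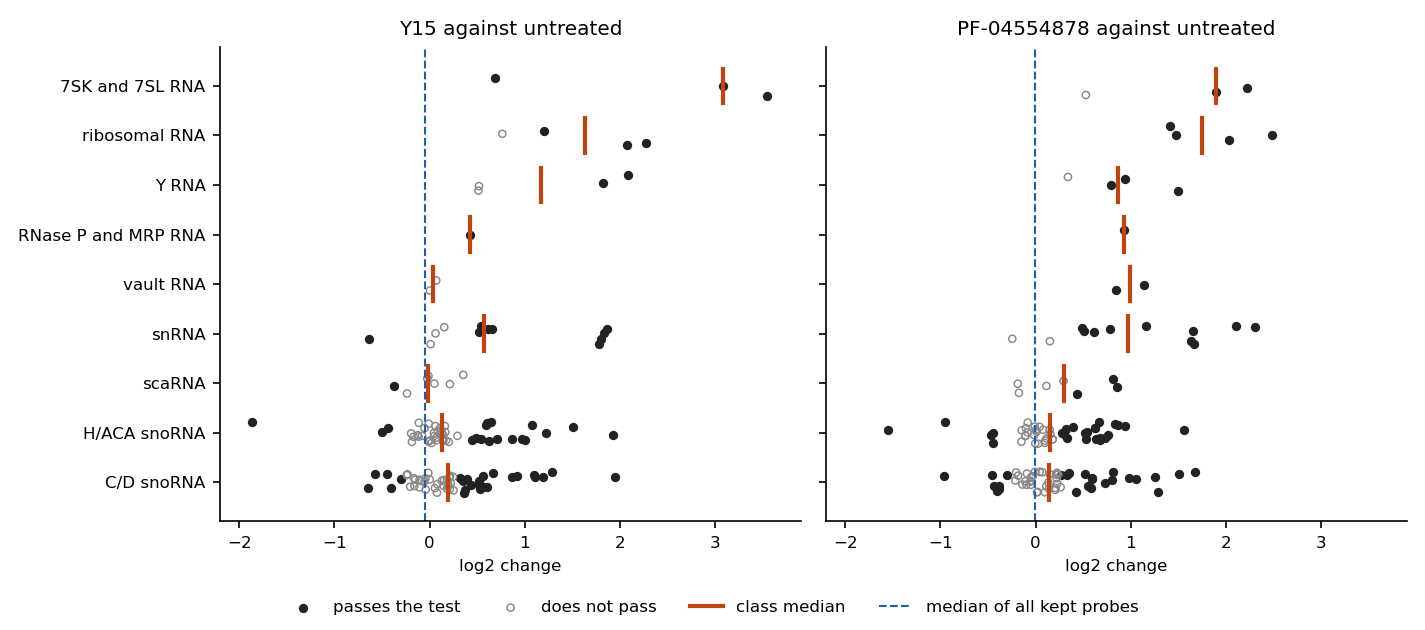
Log2 change of each kept member probe (points, filled where the probe passed the test) by class, under Y15 (left) and PF-04554878 (right) against untreated cells, with the class median as a thick bar and the median of all kept probes as a dashed line. The 7SK probes lie farthest to the right under Y15, at 3.08 and 3.54, while most snoRNAs lie near 0.

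7SK RNA showed the largest change of any member under Y15, and under PF-04554878 it came after RNA5S9 and RNU6-1. It is the scaffold of a nuclear particle that holds P-TEFb, the kinase that releases paused RNA polymerase II, in an inactive state. The brighter RN7SK probe had log2 signals of 11.41 and 11.28 in Y15 cells, 10.01 and 10.04 in PF-04554878 cells and 7.91 and 7.70 in untreated cells. No group overlapped another, and the duplicate arrays of each group lay close together. This was an 11.7-fold rise under Y15 (log2 change 3.54 with a standard error of 0.10, n = 2 per group, adjusted p = 1.1e-06) and a 4.65-fold rise under PF-04554878 (2.22 ± 0.10, adjusted p = 1.6e-06). Y15 exceeded PF-04554878 by 1.33 (95% interval 1.09 to 1.56, adjusted p = 1.8e-05). The dimmer RN7SK probe gave the same order, with 10.13 and 10.30 in Y15 cells, 8.95 and 9.10 in PF-04554878 cells and 7.32 and 6.95 in untreated cells, and log2 changes of 3.08 under Y15 and 1.89 under PF-04554878. The rise was also present before normalization, where the signal of the brighter probe was 1664 and 1649 on the Y15 arrays, 929 and 937 on the PF-04554878 arrays and 436 and 311 on the untreated arrays.

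RN7SL1, the 7SL RNA of the signal recognition particle that directs secreted proteins to the endoplasmic reticulum, gave the highest signal of the member probes, which is no measure of its amount against other RNAs. It had log2 signals of 13.68 and 13.81 in Y15 cells, 13.59 and 13.57 in PF-04554878 cells and 12.62 and 13.49 in untreated cells. Untreated array 1 stood apart from all the others, and the remaining 5 lay within a narrow band. RN7SL1 rose by 0.69 under Y15 (adjusted p = 0.047), and this rested on single arrays, as it was 0.28 without untreated array 1 (adjusted p = 0.086) and did not pass without either Y15 array (0.16 and 0.21) or either PF-04554878 array (0.077 and 0.078), which share the error estimate. Its change of 0.53 under PF-04554878 did not pass (adjusted p = 0.079).

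Ribosomal RNA probes were higher under both compounds. RNA18SN5, the RNA of the small ribosomal subunit, had log2 signals of 11.34 and 11.42 in Y15 cells, 11.36 and 11.30 in PF-04554878 cells and 9.21 and 9.39 in untreated cells. The treated groups overlapped each other and stood about 4-fold above untreated cells, at 4.22-fold under Y15 (adjusted p = 8.5e-06) and 4.08-fold under PF-04554878 (adjusted p = 1.8e-06). They differed by 0.05 (95% interval -0.17 to 0.27). RNA5S9, the 5S RNA of the large subunit, had 9.99 and 10.16 in Y15 cells, 10.58 and 9.99 in PF-04554878 cells and 7.84 and 7.76 in untreated cells. It rose 4.83-fold under Y15 and 5.59-fold under PF-04554878, with a difference between the compounds of -0.21 (interval -0.61 to 0.19).

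The 28S RNA of the large subunit was less even. The dimmer RNA28SN5 probe had 10.59 and 10.28 in Y15 cells, 10.63 and 10.78 in PF-04554878 cells and 8.83 and 9.65 in untreated cells. The brighter one had 12.44 and 11.77 in Y15 cells, 12.68 and 12.81 in PF-04554878 cells and 10.74 and 11.94 in untreated cells. On this probe the Y15 and untreated arrays overlapped, because untreated array 2 lay above Y15 array 2. The dimmer probe passed under Y15 (1.2 ± 0.23, adjusted p = 0.0054) and the brighter did not (0.76 ± 0.35, adjusted p = 0.12), while both passed under PF-04554878 at 1.47 and 1.41. Without Y15 array 1 the dimmer probe no longer passed under Y15 (adjusted p = 0.060), nor did the brighter probe pass under PF-04554878 without PF-04554878 array 2 (adjusted p = 0.058). Median scaling reduced the Y15 change of the dimmer probe to 0.05.

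**Figure D2:**
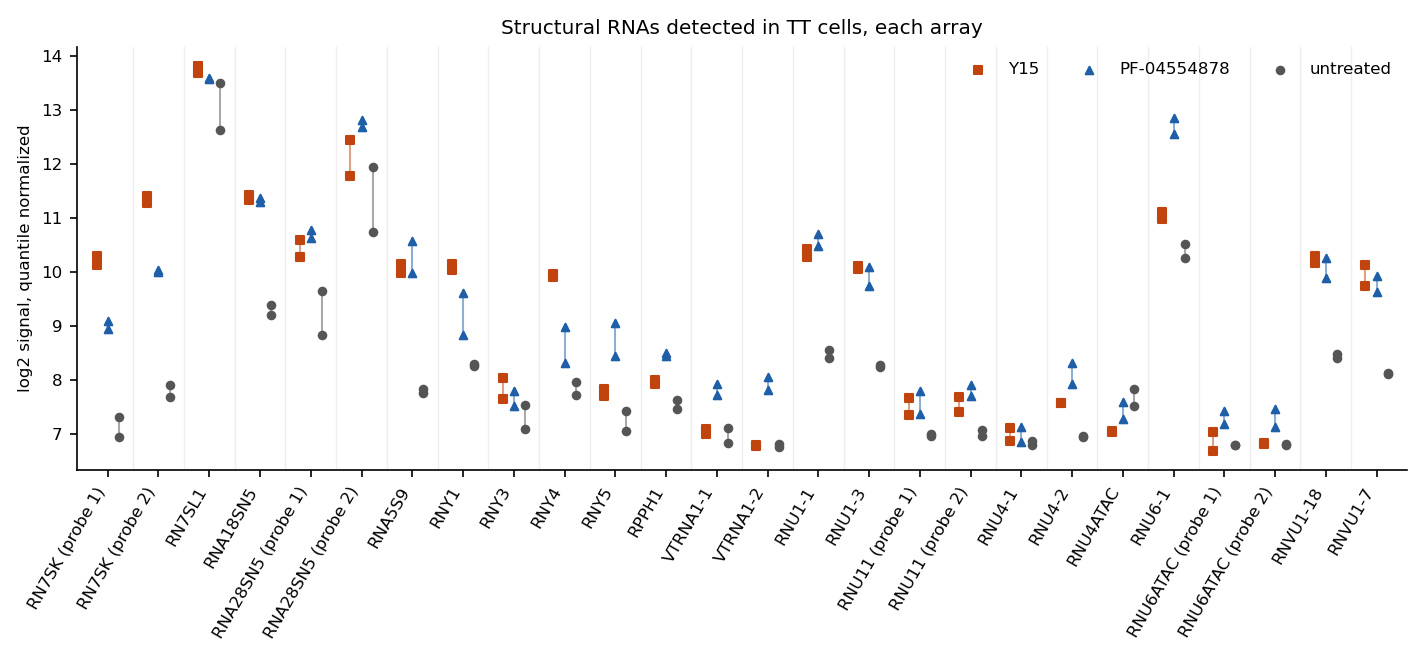
Log2 signal on each array for the kept probes of structural RNAs outside the guide classes, with Y15, PF-04554878 and untreated arrays from left to right for each probe and a line between the 2 arrays of a group. RN7SK is highest under Y15, at 11.41 and 11.28 for its brighter probe, and RNU6-1 under PF-04554878, at 12.84 and 12.55.

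The Y RNAs, which bind the Ro60 protein and take part in RNA quality control and in the start of DNA replication, split by compound. RNY1 had log2 signals of 10.16 and 10.05 in Y15 cells, 9.61 and 8.84 in PF-04554878 cells and 8.30 and 8.27 in untreated cells. RNY4 had 9.96 and 9.92 in Y15 cells, 8.98 and 8.31 in PF-04554878 cells and 7.97 and 7.73 in untreated cells. For both RNAs the groups followed the order Y15, PF-04554878, untreated without overlap, although the PF-04554878 arrays lay far apart. Leaving out 1 of these gave PF-04554878 changes of 0.55 and 1.32 for RNY1 and 0.46 and 1.13 for RNY4 on the log2 scale, all of which passed. RNY1 rose 3.52-fold under Y15 and 1.92-fold under PF-04554878, and RNY4 rose 4.25-fold and 1.73-fold. With median scaling the PF-04554878 changes were 0.07 for RNY1 and -0.02 for RNY4, and neither passed. RNY4 was higher under Y15 than under PF-04554878 by 1.30 (adjusted p = 0.00058), and RNY1 by 0.88 (adjusted p = 0.0070), a call that was lost without Y15 array 1 (adjusted p = 0.056).

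RNY5 went the other way between the compounds, with 7.83 and 7.70 in Y15 cells, 9.06 and 8.45 in PF-04554878 cells and 7.44 and 7.07 in untreated cells. It rose 2.83-fold under PF-04554878 (adjusted p = 0.00026), did not pass under Y15 (log2 change 0.51, adjusted p = 0.072) and was lower under Y15 than under PF-04554878 by 0.99 on the log2 scale. RNY3 passed in no comparison, with 8.04 and 7.65 in Y15 cells, 7.52 and 7.80 in PF-04554878 cells and 7.09 and 7.55 in untreated cells. Its PF-04554878 arrays overlapped those of both other groups.

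RPPH1, the RNA of RNase P, which trims the 5′ end of transfer RNA, had log2 signals of 8.0 and 7.94 in Y15 cells, 8.46 and 8.50 in PF-04554878 cells and 7.64 and 7.47 in untreated cells. The groups did not overlap. RPPH1 rose 1.34-fold under Y15 (adjusted p = 0.0094) and 1.90-fold under PF-04554878 (adjusted p = 6.2e-05), with Y15 cells below PF-04554878 cells by 0.51 on the log2 scale (adjusted p = 0.0019). Under Y15 the call was lost without Y15 array 1 (adjusted p = 0.067) or untreated array 2 (0.051). With median scaling the change was -0.38 under Y15 and 0.20 under PF-04554878.

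The vault RNAs, parts of a large cytoplasmic particle, were higher under PF-04554878 and did not pass under Y15. VTRNA1-1 had 7.01 and 7.11 in Y15 cells, 7.92 and 7.73 in PF-04554878 cells and 7.12 and 6.85 in untreated cells. VTRNA1-2 had 6.81 and 6.79 in Y15 cells, 8.06 and 7.81 in PF-04554878 cells and 6.77 and 6.82 in untreated cells. It was undetected on all Y15 and untreated arrays, and so was kept only through the PF-04554878 arrays, where it was high. Its difference between groups is therefore only described, and the class medians and counts that include VTRNA1-2 carry the same limit. PF-04554878 cells were at least 2.03-fold above untreated cells and Y15 cells at least 1.90-fold below PF-04554878 cells. In such a bound each array of the undetected group counts at its lowest signal among detected probes, or at its own value if that is higher.

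U1 snRNA, which recognizes the 5′ splice site, was represented by 4 probes of near-identical genes that cannot be told apart with certainty. RNU1-1 had log2 signals of 10.28 and 10.43 in Y15 cells, 10.71 and 10.47 in PF-04554878 cells and 8.42 and 8.57 in untreated cells. RNU1-3 had 10.06 and 10.12 in Y15 cells, 10.10 and 9.74 in PF-04554878 cells and 8.28 and 8.24 in untreated cells. Both treated groups lay well above the untreated arrays. The variant genes RNVU1-18 (10.17 and 10.30 in Y15 cells, 10.27 and 9.89 in PF-04554878 cells, 8.42 and 8.49 in untreated cells) and RNVU1-7 (9.74 and 10.13 in Y15 cells, 9.92 and 9.63 in PF-04554878 cells, 8.12 and 8.13 in untreated cells) showed the same pattern. The 4 probes rose 3.43-fold to 3.64-fold under Y15 and 3.09-fold to 4.29-fold under PF-04554878. Between the compounds they differed by -0.24 to 0.17, and none passed. Before normalization the gap was narrower for Y15, with RNU1-1 at 754 and 913 on the Y15 arrays, 1594 and 1311 on the PF-04554878 arrays and 676 and 632 on the untreated arrays.

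U6 snRNA, which forms the catalytic center of the spliceosome with U2, separated the compounds most among snRNAs. RNU6-1 had 11.10 and 10.99 in Y15 cells, 12.84 and 12.55 in PF-04554878 cells and 10.52 and 10.26 in untreated cells. It rose 4.94-fold under PF-04554878 (log2 change 2.30 ± 0.13, adjusted p = 3.7e-06) and lay 1.65 lower on the log2 scale under Y15 than under PF-04554878 (adjusted p = 1.9e-05). The rise of 0.65 under Y15 was small (adjusted p = 0.0058), was lost without Y15 array 1 (adjusted p = 0.057), and turned to -0.43 with median scaling. Its signal before normalization was 1343 and 1337 on the Y15 arrays, 8373 and 6096 on the PF-04554878 arrays and 2814 and 1902 on the untreated arrays.

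U4 snRNA pairs with U6 before the spliceosome is activated. RNU4-2 had 7.57 and 7.58 in Y15 cells, 8.31 and 7.94 in PF-04554878 cells and 6.97 and 6.95 in untreated cells. It rose 1.53-fold under Y15 and 2.24-fold under PF-04554878, without overlap between groups, whereas its near-copy RNU4-1 was detected on 2 arrays and passed in no comparison. The minor spliceosome, which removes a rare kind of intron, showed both directions. The 2 probes of its U11 RNA (RNU11) rose under Y15 (0.54 and 0.52) and under PF-04554878 (0.61 and 0.78). Without Y15 array 2 neither passed under Y15 (adjusted p = 0.18 and 0.081), the first was also lost there without either untreated array (0.066 and 0.075), and under PF-04554878 the first was lost without PF-04554878 array 1 (0.059). The 2 probes of RNU6ATAC, undetected in untreated cells, rose under PF-04554878 (at least 1.32-fold and 1.31-fold) and did not pass under Y15. For 1 of these probes the PF-04554878 call was lost when 1 array or another was left out (log2 change 0.42 to 0.67 over such fits). RNU4ATAC fell under Y15 (log2 change -0.64, adjusted p = 0.0082) and did not pass under PF-04554878 (-0.25, adjusted p = 0.15), with 7.06 and 7.05 in Y15 cells, 7.60 and 7.28 in PF-04554878 cells and 7.85 and 7.53 in untreated cells. It was the only snRNA with a fall that passed, a call that ended when either Y15 array was left out (adjusted p 0.054 and 0.056).

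Grouped by how they are made, known from background and set after the values were seen, the 14 kept probes of RNAs from RNA polymerase III comprised 8 that were higher (57.1%, with 16% of all kept probes) and 0 that were lower under Y15, and 12 (85.7%, with 28.2% of all) and 0 under PF-04554878. Of 14 probes for RNAs that RNA polymerase II makes from their own promoters (the U1, U4, U4atac and U11 genes, SNORD3A, SNORD3C, SNORD3D, SNORD13 and TERC), 11 were higher (78.6%) and 2 lower under Y15, and 10 (71.4%) and 0 under PF-04554878. Probes in these sets are not independent members. The U1 genes are near-identical, as are SNORD3A, SNORD3C and SNORD3D, and RNU11, RN7SK and RNU6ATAC have 2 probes each. The percentages therefore stand for fewer kinds of RNA than probes. Of 103 probes for RNAs inside a host gene, 31 were higher (30.1%) and 8 lower (7.77%, with 20.4% of all) under Y15, and 38 (36.9%) and 12 (11.7%, with 29.8% of all) under PF-04554878. Their median log2 change was 0.14 under Y15 and 0.13 under PF-04554878.

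U3 is a C/D RNA with its own promoter that acts in the early cuts of the ribosomal RNA precursor rather than as a guide. Its copies, near-identical in sequence, rose under both compounds. SNORD3A had log2 signals of 8.59 and 8.82 in Y15 cells, 8.88 and 8.66 in PF-04554878 cells and 7.63 and 7.40 in untreated cells. SNORD3D had 8.50 and 8.85 in Y15 cells, 9.17 and 8.96 in PF-04554878 cells and 7.69 and 7.44 in untreated cells. All treated arrays stood above all untreated ones, with rises under Y15 of 2.29-fold for SNORD3A, 2.16-fold for SNORD3D and 1.59-fold for SNORD3C, and under PF-04554878 of 2.39-fold, 2.84-fold and 1.97-fold. With median scaling the Y15 changes of SNORD3A (0.32) and SNORD3D (0.22) did not pass. SNORD3D was lower under Y15 than under PF-04554878 by 0.40 on the log2 scale (adjusted p = 0.043), a call that was lost without Y15 array 1 (adjusted p = 0.29) or without either PF-04554878 array (0.23 and 0.061). SNORD13, or U13, which also acts in processing, was detected on 2 arrays, passed under Y15 (0.32, adjusted p = 0.042) and did not under PF-04554878 (0.21). The Y15 call was lost without any 1 of the Y15 and untreated arrays (adjusted p 0.074 to 0.21) and with a replicate block (0.063).

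The largest fall among all members was that of SNORA61, an H/ACA guide that lies inside the noncoding gene SNHG12. It had log2 signals of 7.91 and 7.83 in Y15 cells, 8.30 and 8.09 in PF-04554878 cells and 9.59 and 9.88 in untreated cells. The treated groups lay well below untreated cells. SNORA61 fell to 0.274-fold under Y15 (log2 change -1.87 ± 0.12, adjusted p = 4.2e-05) and to 0.343-fold under PF-04554878 (-1.55 ± 0.12, adjusted p = 1.6e-05). It was the member that fell by at least 2-fold under either compound. SNORD104, a C/D guide with the highest signal of its class, had 8.38 and 8.45 in Y15 cells, 8.16 and 8.05 in PF-04554878 cells and 8.94 and 9.20 in untreated cells, and fell by 0.65 and 0.96 on the log2 scale. The other snoRNAs to fall under both compounds were SNORA26, undetected under either (at least 1.16-fold under Y15 and 1.15-fold under PF-04554878, but 0.08 and 0.02 higher on the log2 scale with scaling to kept probes), and SNORD80 (-0.57 and -0.40), which lies inside GAS5. SNORA26 was kept only through the untreated arrays, where it was highest. The SNORD80 changes rested on single arrays, as they were -0.35 under Y15 and -0.19 under PF-04554878 without untreated array 1, and -0.23 under PF-04554878 without PF-04554878 array 2, none of which passed. Nor did either pass without Y15 array 1 or Y15 array 2 (adjusted p 0.082 to 0.12).

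A few guides moved in opposite directions under the 2 compounds, which share the untreated arrays. SNORA25 had log2 signals of 10.27 and 10.13 in Y15 cells, 7.85 and 7.81 in PF-04554878 cells and 8.38 and 8.17 in untreated cells. It rose 3.80-fold under Y15 (adjusted p = 1.6e-05), fell to 0.735-fold under PF-04554878 (adjusted p = 0.0060), and was 5.17-fold higher under Y15 than under PF-04554878 (adjusted p = 1.8e-06). SNORD14D, a copy of U14, which is needed to make 18S RNA, had 9.43 and 9.03 in Y15 cells, 6.86 and 6.79 in PF-04554878 cells and 7.23 and 7.33 in untreated cells. Here too the untreated arrays lay between the treated groups.

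SNORD14D rose 3.86-fold under Y15 (adjusted p = 4.8e-05). It was undetected on both PF-04554878 arrays and so at least 4.59-fold higher under Y15 than under PF-04554878 (adjusted p = 3.8e-06). Its fall under PF-04554878, at least 1.19-fold (adjusted p = 0.017), was lost without untreated array 2 (adjusted p = 0.085) or without PF-04554878 array 2 (0.071). SNORD14C, a neighbouring copy in the same host, had 8.71 and 8.61 in Y15 cells, 7.36 and 6.98 in PF-04554878 cells and 7.37 and 7.38 in untreated cells. It rose 2.43-fold under Y15 and did not pass under PF-04554878 (-0.21, adjusted p = 0.19). SNORD14A, another copy, in RPS13, rose under both compounds, with 8.37 and 8.29 in Y15 cells, 7.82 and 7.81 in PF-04554878 cells and 7.20 and 7.25 in untreated cells. These copies are alike in sequence, and their probes may share signal.

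SNORA70, inside the ribosomal protein gene RPL10, had 9.66 and 9.43 in Y15 cells, 8.46 and 8.61 in PF-04554878 cells and 8.92 and 9.09 in untreated cells. It was 2.01-fold higher under Y15 than under PF-04554878 (adjusted p = 0.00013). Against untreated cells its changes were 0.54 under Y15, lost without Y15 array 1 (adjusted p = 0.073) and turned to -0.62 with median scaling, and -0.47 under PF-04554878, lost without PF-04554878 array 1 (adjusted p = 0.057). SNORD16, inside RPL4, showed the opposite split, with 6.84 and 6.93 in Y15 cells, 8.08 and 8.03 in PF-04554878 cells and 7.38 and 7.27 in untreated cells. Undetected under Y15, it was at least 1.25-fold lower there than in untreated cells (adjusted p = 0.0060), rose 1.66-fold under PF-04554878 (adjusted p = 0.00018), and was at least 2.07-fold lower under Y15 than under PF-04554878 (adjusted p = 1.6e-05).

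Other guides rose under both compounds. SNORA67, with the highest signal among H/ACA guides, had log2 signals of 10.13 and 9.88 in Y15 cells, 9.95 and 10.17 in PF-04554878 cells and 8.49 and 8.52 in untreated cells. It rose 2.84-fold under Y15 and 2.95-fold under PF-04554878, and the compounds differed by -0.06 (95% interval -0.32 to 0.21). SNORA28, inside the translation factor gene EIF5, had 7.93 and 8.18 in Y15 cells, 7.65 and 7.48 in PF-04554878 cells and 6.84 and 6.83 in untreated cells. Undetected in untreated cells, it was at least 2.21-fold higher under Y15 (adjusted p = 0.00016) and at least 1.57-fold higher under PF-04554878 (adjusted p = 0.00060). SNORA72 had 8.31 and 8.01 in Y15 cells, 7.83 and 7.68 in PF-04554878 cells and 7.16 and 7.01 in untreated cells, and rose 2.11-fold and 1.59-fold. The remaining guides that rose under both were SNORA10, SNORA33, SNORA41, SNORA7B, SNORA84, SNORD100, SNORD11 and SNORD6, with log2 changes of 0.56 to 1.0 under Y15 and 0.28 to 0.94 under PF-04554878, where SNORA33 and SNORD6 turned to -0.06 and -0.07 with median scaling. The PF-04554878 call of SNORA84 was lost when 1 array or another was left out (0.23 to 0.32 over such fits).

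Under PF-04554878, and not under Y15, several C/D guides passed at 2-fold. SNORD84, inside the helicase gene DDX39B, had log2 signals of 7.01 and 7.13 in Y15 cells, 8.62 and 8.43 in PF-04554878 cells and 6.87 and 6.85 in untreated cells. It was undetected in untreated cells and at least 3.06-fold higher under PF-04554878. It would not have been kept without the PF-04554878 arrays, where it was high, so its differences between groups are only described. SNORD25 had 7.34 and 7.10 in Y15 cells, 8.60 and 8.62 in PF-04554878 cells and 7.34 and 7.31 in untreated cells. SNORD35B had 7.78 and 7.75 in Y15 cells, 8.56 and 8.64 in PF-04554878 cells and 7.54 and 7.54 in untreated cells. In each case the PF-04554878 arrays lay highest, and the Y15 changes of SNORD84, SNORD25 and SNORD35B did not pass, although the Y15 arrays of SNORD84 and SNORD35B lay above the untreated ones. SNORD25 rose 2.44-fold and SNORD35B rose 2.08-fold. The difference between the compounds (Y15 minus PF-04554878) passed for SNORD25 (-1.40) and SNORD35B (-0.83), with no adjusted p above 6.6e-05. For SNORD84 it was -1.46, with the limit given above.

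**Figure D3:**
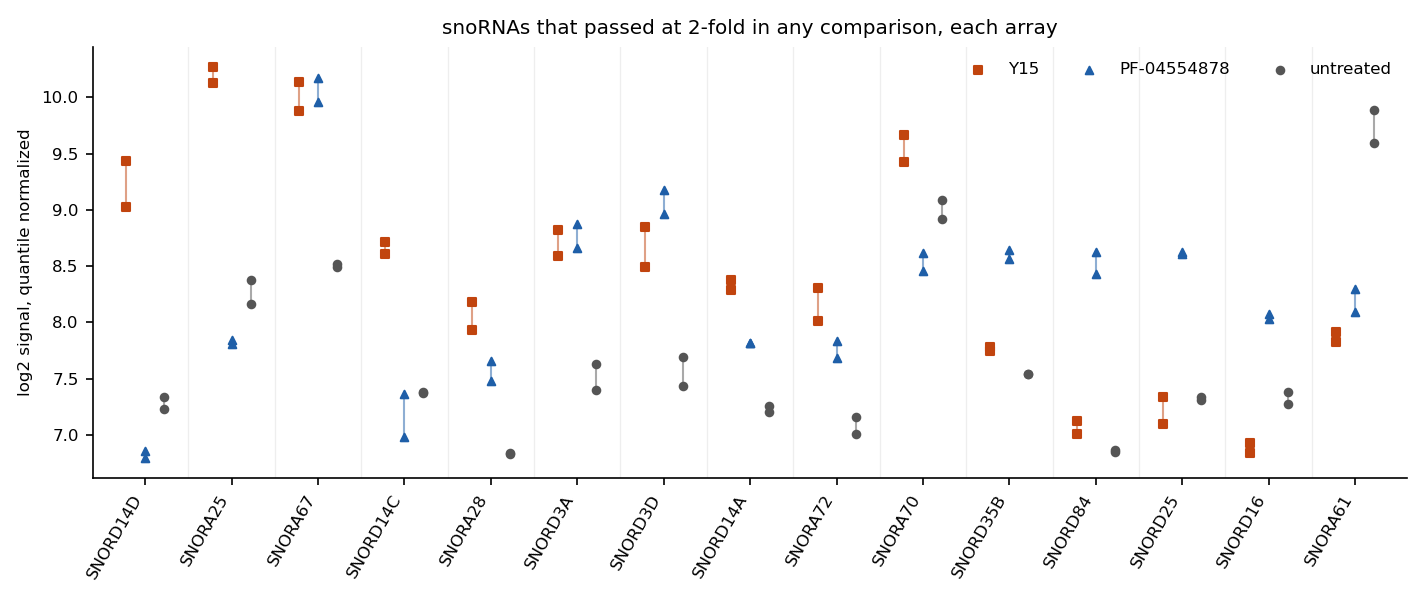
Log2 signal on each array for the 15 snoRNAs that passed at 2-fold in any of the 3 comparisons, with Y15, PF-04554878 and untreated arrays from left to right and the RNAs ordered by their change under Y15. SNORD14D and SNORA25 are highest under Y15, SNORD84 and SNORD25 are highest under PF-04554878, and SNORA61 is highest in untreated cells, at 9.59 and 9.88.

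The rest of the kept guides changed less than 2-fold. Higher under Y15 and not passing under PF-04554878 were SNORA21, SNORA31, SNORA32, SNORA3B and SNORA64, and among C/D guides SNORD11B, SNORD139, SNORD21, SNORD33, SNORD35A, SNORD36C, SNORD51, SNORD57, SNORD68 and SNORD83B, at 0.35 to 0.98. SNORA3B was the largest of these, and with median scaling SNORD68, SNORD36C and SNORD83B turned to -0.24, -0.08 and -0.06. The calls of SNORA64, SNORD11B, SNORD35A, SNORD36C, SNORD51 and SNORD57 were lost when 1 array or another was left out. Lower under Y15 alone were SNORA18 (-0.50), SNORD65 (-0.30) and SNORD96A (-0.40), together with TERC, the RNA template of telomerase, at -0.38 (at least 1.10-fold, adjusted p = 0.020), a call lost without untreated array 1 (adjusted p = 0.13) or either Y15 array (0.069 and 0.10). With scaling to kept probes TERC and SNORD65 turned to 0.20 and 0.23. The calls of SNORD65 and SNORD96A were lost without untreated array 1 (adjusted p = 0.13 and 0.11) or Y15 array 1 (0.19 and 0.072), that of SNORD65 also without untreated array 2 (0.12) and that of SNORD96A without Y15 array 2 (0.13). Higher under PF-04554878 and not passing under Y15 were SNORA12, SNORA23, SNORA2B, SNORA3A, SNORA4, SNORA63, SNORA73A, both probes of SNORA73B, SNORA78, SNORA80A and SNORA80E, at 0.30 to 0.87. Of these, SNORA12 (0.33, adjusted p = 0.041) turned to -0.11 with median scaling, was 0.20 without PF-04554878 array 1 and passed only without PF-04554878 array 2 among the fits that left out 1 array. In the direct comparison their log2 differences (Y15 minus PF-04554878) ran from -0.80 to -0.10, while those of the guides higher under Y15 alone ran from 0.25 to 0.95. The guides had been sorted by these calls, and the direct difference is that of their 2 changes. Its sign was thus largely set by the sorting and is no separate support. SNORA73A and SNORA73B, copies of U17, are H/ACA RNAs that act in cutting the ribosomal RNA precursor. The C/D guides SNORD114-2, SNORD43, SNORD55, SNORD56, SNORD91A, SNORD95 and SNORD99 also rose under PF-04554878 alone. Besides SNORA12, the rises of SNORA3A, SNORA78, SNORA80A, SNORD55 and SNORD114-2 there lost their calls when 1 array or another was left out. SNORA24 fell under PF-04554878 alone, by 0.95 on the log2 scale, with 8.48 and 8.43 in Y15 cells, 7.44 and 7.56 in PF-04554878 cells and 8.49 and 8.40 in untreated cells. SNORD12, SNORD48, SNORD52 and SNORD87 fell there by 0.30 to 0.43, but with scaling to kept probes SNORD12, SNORD48 and SNORD87 were higher (0.28, 0.18 and 0.14). Each of these falls also lost its call when 1 array or another was left out.

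Among scaRNAs, SCARNA10 had the highest signal, with log2 signals of 8.25 and 8.32 in Y15 cells, 8.49 and 8.51 in PF-04554878 cells and 8.17 and 7.97 in untreated cells. It rose 0.43 under PF-04554878, which turned to -0.45 with median scaling, and did not pass under Y15 (0.21, adjusted p = 0.12). SCARNA16 (0.85) and SCARNA21 (0.81) also rose under PF-04554878 and were lower under Y15 than under PF-04554878 (-0.86 and -0.76). SCARNA13, SCARNA18 and SCARNA27 passed in no comparison.

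Of the kept member probes, 37 passed against untreated cells under neither compound, a count with no share over all kept probes to set beside it. Besides those already named they were SNORA11D, SNORA14B, SNORA16A, SNORA27, SNORA49, SNORA50C, SNORA57, SNORA58, SNORA59A, SNORA5B, SNORA6, SNORA62, SNORA65, SNORA68, SNORA70B and SNORA8 among H/ACA guides, with log2 changes of -0.19 to 0.29 under Y15 and -0.11 to 0.18 under PF-04554878. Among C/D guides they were SNORD10, SNORD110, SNORD12B, SNORD14B, SNORD15B, SNORD22, SNORD30, SNORD31, SNORD32A, SNORD34, SNORD36A, SNORD38A, SNORD49A, SNORD4A, SNORD73A and SNORD89, with -0.23 to 0.25 and -0.18 to 0.24.

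Guides were next set beside the genes that hold them. By the coordinates in the RefSeq gene table, which gives no strand, 264 of the 304 snoRNAs and scaRNAs lie inside 1 gene, 31 inside several and 9 inside none. For 74 kept probes the host also had a kept probe, across 47 hosts, each represented by its brightest. Under Y15, 27 of the 74 guides were higher, and the host was higher for 5 of these, lower for 8 and did not pass for 14. Of the 4 that were lower, the host was higher for 1, lower for 0 and did not pass for 3. Beside guides that did not pass, the host was higher for 7, lower for 9 and did not pass for 27. Under PF-04554878, 28 guides were higher, with a higher host for 8, a lower host for 5 and no call for 15. Of the 8 that were lower, the host was higher for 3, lower for 2 and did not pass for 3. Beside guides that did not pass, the host was higher for 13, lower for 7 and did not pass for 18. Among all kept probes, 16% were higher and 20.4% lower under Y15, and 28.2% and 29.8% under PF-04554878. Over all genes by their brightest kept probe, 16.7% were higher and 21.4% lower under Y15, and 27.2% and 35% under PF-04554878. A host with several guides was counted once for each, so the 74 pairs cover only 47 hosts. Whether hosts of guides that passed differ from the other hosts was not tested. Across the 74 probes, which share hosts and arrays, the correlation between the log2 changes of guide and host was -0.11 under Y15 and 0.06 under PF-04554878 (Pearson, as a description).

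Guides within 1 host were then compared. In 21 hosts with at least 2 kept guides each, holding 52 guides in all, 10 hosts had guides that passed under Y15 beside guides that did not, 5 had all guides pass in 1 direction and 6 had none pass, and a pass beside a failure to pass is no test of a difference. For PF-04554878 these counts were 14, 3 and 4. A guide that rose shared a host with a guide that fell in 1 host under Y15 (TAF1D) and in 2 under PF-04554878 (TAF1D and SNHG12).

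TAF1D codes for a subunit of the factor that starts transcription by RNA polymerase I, and its start region is the first one printed above. Of its 5 kept guides, SNORA25, SNORA32 and SNORD6 rose under Y15 (1.93, 0.59 and 0.56), SNORA18 fell (-0.50, adjusted p = 0.049) and SNORA8 did not pass (-0.12). SNORA18 had 8.25 and 8.35 in Y15 cells, 8.81 and 8.51 in PF-04554878 cells and 9.06 and 8.55 in untreated cells, so the gap was small, and the call was lost when any array but untreated array 2 was left out (adjusted p 0.058 to 0.24). The host itself rose by 0.48. Under PF-04554878, SNORA25 fell (-0.44), SNORD6 rose (0.35), the other 3 did not pass and the host rose by 0.27, although its dimmer probe gave -0.08. The 95% interval of SNORA25 under Y15, 1.69 to 2.16, lies above those of all the other TAF1D guides.

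SNHG12, a noncoding host, had a log2 change of 0.14 under Y15 (adjusted p = 0.31) and fell by 0.63 under PF-04554878. Of its 3 kept guides, SNORA61 fell by 1.87 and 1.55 on the log2 scale, SNORD99 was at 0.19 under Y15 (adjusted p = 0.22) and rose by 0.59 under PF-04554878, and SNORA16A did not pass (-0.19 and -0.11). In SNHG1, whose mature transcript codes for no protein, SNORD25 rose by 1.29 under PF-04554878, whereas SNORD22, SNORD30 and SNORD31 did not pass (0.01, 0.14 and 0.11) and the host rose by 0.29.

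HSPA8, which codes for the constitutive heat shock cognate chaperone, holds SNORD14C and SNORD14D. Their rises under Y15, 1.28 and 1.95, stood beside a host change of -0.14 (adjusted p = 0.28) by its brightest probe and 0.22 (adjusted p = 0.095) by another. Under PF-04554878 the host fell by 2.07 and 1.85 on these probes, while SNORD14D fell by 0.46 and SNORD14C did not pass. Between the compounds the host was higher under Y15 by 1.93, as were SNORD14C by 1.49 and SNORD14D by 2.40. SNORA28 rose under Y15 while the brightest probe of its host EIF5 fell (-0.76, adjusted p = 0.00093), although the other 3 EIF5 probes did not pass under Y15. SNORA24 fell under PF-04554878 while its noncoding host SNHG8 rose (0.43, adjusted p = 0.026). RPL4, the host of SNORD16, was at -0.01 under either compound.

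Hosts that code for ribosomal and nucleolar proteins gave further pairs. In RPL27A, SNORA3B rose under Y15 (0.98) while SNORA3A did not pass (-0.17), and under PF-04554878 SNORA3A rose (0.31) while SNORA3B did not pass (0.03), with the host at -0.02 and 0.00. In RPL3, SNORD83B and SNORD139 rose under Y15 (0.92 and 0.60) beside a host whose brightest probe fell (-0.44) and whose other probe rose (0.37, adjusted p = 0.045), and SNORD43 rose under PF-04554878 (0.58) and did not pass under Y15 (0.06). SNORA10 and SNORA64 in RPS2 rose under Y15 (0.71 and 0.45) beside a host that fell (-0.58). In NOP56, whose protein is itself a core part of C/D particles, SNORD57 rose under Y15 (0.38) and SNORD56 under PF-04554878 (0.80), while the brightest probe of the host fell under both compounds (-0.64 and -1.51) and its other 2 probes passed under neither (-0.19 and 0.11 under Y15, -0.20 and -0.16 under PF-04554878). The reverse stood in ZFAS1, which rose under both (0.59 and 1.13) while SNORD12 did not pass under Y15 (-0.24) and fell under PF-04554878 (-0.30). These 5 hosts were picked after their values were seen. Some of the guide calls were lost when 1 array or another was left out. Under Y15 these were SNORA64 (0.32 to 0.63 over such fits) and SNORD57 (0.29 to 0.45). Under PF-04554878 they were SNORA3A (0.25 to 0.37) and SNORD12 (-0.35 to -0.24).

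**Figure D4:**
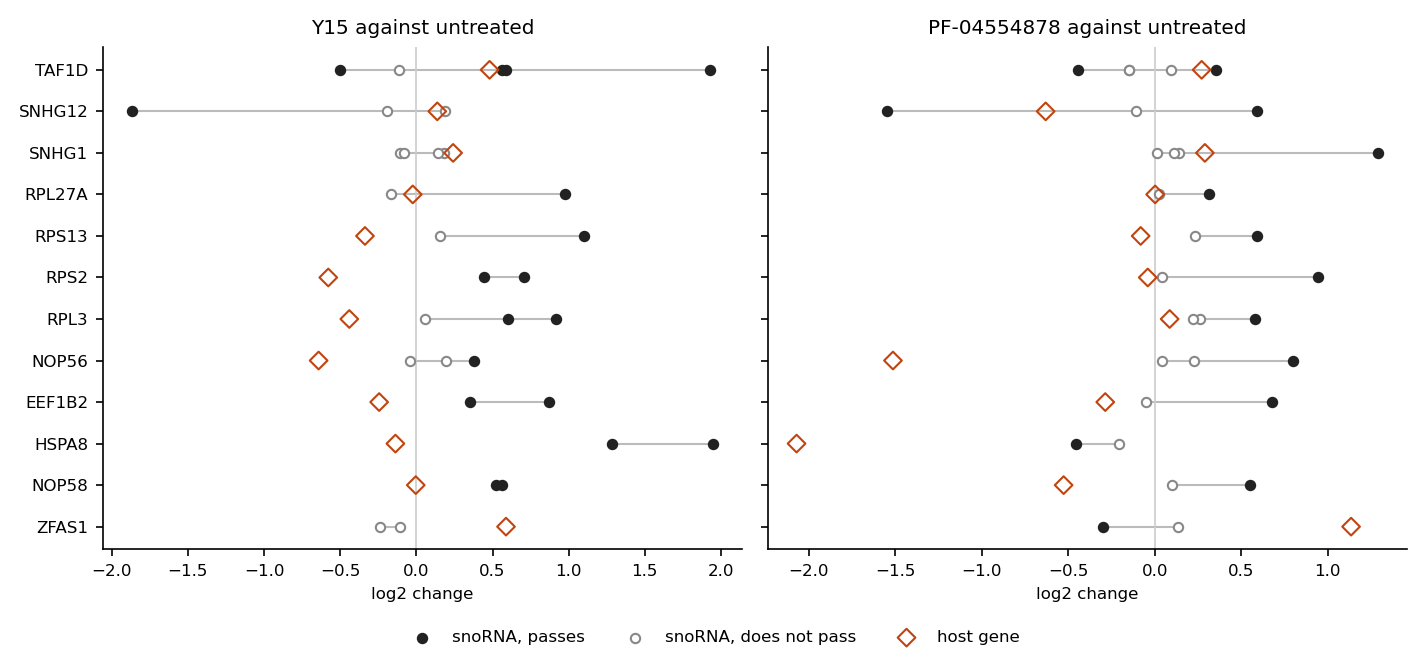
Log2 change under Y15 (left) and PF-04554878 (right) against untreated cells for the guides (circles, filled where they passed) and the host gene (open diamonds) of the 12 hosts with a kept probe, at least 2 kept guides and the widest spread among those guides. In TAF1D under Y15 the guides span -0.50 to 1.93 around a host change of 0.48.

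The proteins that work with these RNAs were counted by gene, each by its brightest kept probe, and paired values are log2 changes under Y15 and under PF-04554878. Over all 11388 genes so represented, 16.7% were higher and 21.4% lower under Y15, and 27.2% and 35% under PF-04554878. For 7SK, 7 proteins of its particle and of P-TEFb were measured, of which 2 rose and 2 fell under Y15, and 4 rose and 3 fell under PF-04554878. CDK9, the P-TEFb kinase, rose by 0.79 under Y15 and 0.49 under PF-04554878. Its cyclins CCNT1 (0.50 and 1.79) and CCNT2 (0.08, adjusted p = 0.50, and 1.83) were highest under PF-04554878. LARP7, which binds the 3′ end of 7SK, fell by 0.61 and 1.48, and MEPCE, which caps 7SK, was at 0.34 under Y15 (adjusted p = 0.070) and fell at least 1.98-fold under PF-04554878, where it was undetected. HEXIM1, which inhibits P-TEFb on 7SK, had no kept probe.

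Of 8 signal recognition particle and receptor genes, 2 rose and 2 fell under Y15, and 0 rose and 4 fell under PF-04554878, with SRP19 at -0.42 and -2.78 and SRP54 at -0.05 (adjusted p = 0.73) and -0.75. Of 10 RNase P and MRP protein genes, 2 rose and 0 fell under Y15, and 1 rose and 7 fell under PF-04554878. RPP25 was at -0.31 (adjusted p = 0.057) and -2.54, and RPP40 at 0.27 (adjusted p = 0.088) and -1.54. The 2 that rose under Y15 were POP7 (0.80 and 0.45) and RPP21 (0.41 and -1.32). Their RNA partner RPPH1 rose under both compounds, under Y15 with the limits given above. Among 4 genes of Y RNA and vault proteins, 0 rose and 2 fell under Y15, and 1 rose and 1 fell under PF-04554878. RO60 was at -0.33 and 0.83.

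All 7 C/D snoRNP genes were measured, and of the core proteins NOP56 fell under both compounds by its brightest probe only (-0.64 and -1.51), NOP58 under PF-04554878 (-0.53), and SNU13, which binds the C/D fold first, rose under PF-04554878 (1.17). FBL, the methyltransferase, passed under neither (0.23 and 0.06). In the whole list, 0 rose and 1 fell under Y15, and 1 rose and 2 fell under PF-04554878. All 6 H/ACA snoRNP genes were measured, of which 0 rose and 2 fell under Y15, and 0 rose and 4 fell under PF-04554878. GAR1 was at 0.10 (adjusted p = 0.58) and -1.75, and DKC1, the pseudouridine synthase, at -0.28 and -0.10 (adjusted p = 0.34). Of 13 assembly and Cajal body factors, 4 rose and 2 fell under Y15, and 3 rose and 7 fell under PF-04554878. Among them were ZNHIT3 (0.04, adjusted p = 0.82, and -2.03) and RUVBL1 (-1.02 and -1.0), while COIL, the coilin of the Cajal body, rose under both (0.51 and 0.64).

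The transcription factors for RNA polymerase III and snRNA genes split under Y15, with 3 of 16 higher and 3 lower, and 4 were higher and 8 lower under PF-04554878. SNAPC1, which binds snRNA and 7SK promoters, rose by 1.62 and 0.34, and BRF2, needed at U6 and 7SK promoters, rose by 1.41 under Y15 and fell by 0.52 under PF-04554878. ZNF143 was at -0.05 (adjusted p = 0.67) and 1.61, and GTF3C2 fell by 0.91 and 1.65. Of 14 Integrator genes, whose complex cuts the 3′ end of snRNAs, 1 rose and 4 fell under Y15, and 1 rose and 10 fell under PF-04554878, with INTS6 at -0.31 (adjusted p = 0.097) and -1.85. Of 20 genes for decay and 3′ trimming of small RNAs, 3 rose and 4 fell under Y15, and 3 rose and 13 fell under PF-04554878. Among them, the exosome genes EXOSC3 (-0.49 under Y15, and undetected and at least 4.95-fold lower under PF-04554878) and EXOSC4 (0.00, adjusted p = 0.98, and -2.11) fell most under PF-04554878, and TENT4B, a poly(A) polymerase, rose by 0.96 and 0.56. Of 13 noncoding host genes, 6 rose and 0 fell under Y15, and 8 rose and 1 fell under PF-04554878, led by EPB41L4A-AS1 (1.83 and 1.37), SNHG15 (1.11, and 0.13 with adjusted p = 0.24) and ZFAS1 (0.59 and 1.13).

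**Figure D5:**
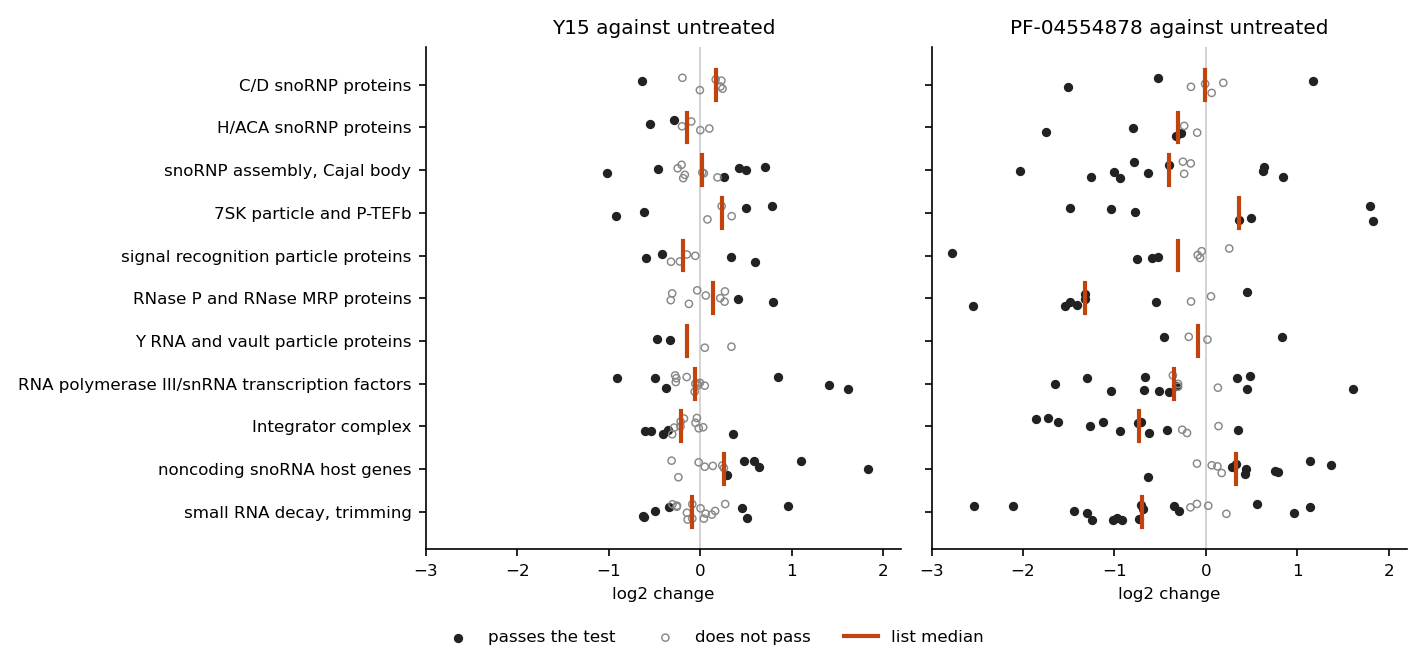
Log2 change of each measured gene of 11 lists of protein partners, transcription factors, decay factors and host genes under Y15 (left) and PF-04554878 (right) against untreated cells, filled where it passed, with the list median as a thick bar. The list median farthest from 0 is that of the RNase P and MRP proteins under PF-04554878, at -1.32.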

How the data were processed

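Total RNA from 6 samples of TT cells was labelled and hybridized to 1-color Illumina bead arrays. The deposited tables give, per the file headers, the average bead intensity of each probe with its detection p-value, which the authors exported from GenomeStudio. The authors also deposited log2 values, quantile normalized in lumi. Probe names came from the annotation of the HumanHT-12 v4 platform, whereas the methods name another chip.

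From the intensities, log2 values were quantile normalized over all 47317 probes without background correction, as the methods describe, and 18876 kept probes were fitted in limma 3.58.1 (R 4.3.3) over 3 groups, with 3 residual and 5.24 prior degrees of freedom. Benjamini-Hochberg adjustment ran over all kept probes. The fit was tested on simulated data. The number of arrays limits the precision, and the median standard error of a log2 change was 0.10.

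Members were matched by symbol, and 12 probes of 8 protein-coding or host genes were left out. Members, classes, the 11 gene lists and the marker lists were chosen with earlier results of these data known. Every RNA with a kept probe is named, with array values for those passing at 2-fold in any comparison and for the highest signal of each class. Of each gene list, up to 4 members with the largest passing changes could be named. TAF1D, which codes for a protein, was counted out of the noncoding hosts. SNORA24, SNORA18 and a few proteins were described after their values were seen. Alternatives covered background correction, scaling, filters, the prior, the deposited values, a replicate block and leaving out each array.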

Additional observations from a re-analysis of the deposited data

How the results depend on the processing

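Signal near background and 2 arrays per group limited what could be detected. With median scaling 24 member probes were higher and 36 lower under Y15, 35 were lower under PF-04554878, and 18 were higher under Y15 than under PF-04554878. Scaling to the median of kept probes, tried after the data had been seen, gave 113 higher and 5 lower under Y15, and 110 higher and 6 lower under PF-04554878. The median log2 change of all kept probes on that scale was itself 0.14 under Y15 and 0.31 under PF-04554878. The share of all kept probes called there was not counted, so these counts are not read as a result about the members. Among probes detected on all 6 arrays, which held 68 of the 135 member probes, 6 were lower under Y15, and 38 were higher and 6 lower under PF-04554878. Of the same probes, 17 were higher and 15 lower under Y15 than under PF-04554878. At 2-fold the counts were 20 higher and 1 lower under Y15, 20 and 1 under PF-04554878, and 7 and 5 between the compounds. Leaving out each array gave 4 to 9 lower under Y15 (4 without Y15 array 1 or 2, 5 without untreated array 1) and 7 to 12 lower under PF-04554878 (7 without PF-04554878 array 2). The cause was not tested for these or the following shifts.

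Class medians of the guides and snRNAs also moved. With median scaling they were 0.16 for snRNAs, -0.41 for scaRNAs, -0.065 for H/ACA and -0.057 for C/D snoRNAs under Y15, and 0.59, -0.35, -0.057 and -0.072 under PF-04554878. Scaling to kept probes gave 0.97, 0.40, 0.74 and 0.75 under Y15, 1.35 for snRNAs, 0.70 for H/ACA and 0.69 for C/D snoRNAs under PF-04554878, and -0.021 for H/ACA snoRNAs between the compounds. Background correction (nec) gave 0.82 for snRNAs, 0.19 for H/ACA and 0.31 for C/D snoRNAs under Y15, and 1.41, 0.24 and 0.23 under PF-04554878. With neqc these were 1.38, 0.38 and 0.55 under Y15, and 1.86, 0.36 and 0.37 under PF-04554878 with 0.62 for scaRNAs, and between the compounds -0.25 for H/ACA and 0.13 for C/D snoRNAs. Without the detection filter the H/ACA and C/D medians were 0.045 and 0.028 under Y15, 0.042 and 0.027 under PF-04554878, and -0.0052 and -0.0047 between the compounds, with 0.61 for snRNAs and 0.059 for scaRNAs under PF-04554878. On all 6 arrays they were 0.25 for C/D snoRNAs under Y15, and 1.63 for snRNAs and 0.21 for C/D snoRNAs under PF-04554878. Leaving out each array gave 0.14 to 0.21 for C/D snoRNAs under Y15. Under PF-04554878 it gave 0.86 to 1.15 for snRNAs, 0.0069 to 0.42 for scaRNAs (0.0069 without PF-04554878 array 1), 0.063 to 0.26 for H/ACA and 0.099 to 0.19 for C/D snoRNAs. Between the compounds it gave -0.11 to -0.015 for H/ACA and -0.023 to 0.12 for C/D snoRNAs.

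Of 208 changes of single member probes that passed in a comparison, median scaling turned 11 and ended 63. Those turned under Y15 were RPPH1 (-0.38), SNORA70 (-0.62), SNORD68 (-0.24), SNORD36C (-0.076), SNORD83B (-0.055) and RNU6-1 (-0.43), and under PF-04554878 SNORA33 (-0.057), SNORD6 (-0.072), SNORA12 (-0.11), RNY4 (-0.016) and SCARNA10 (-0.45). Scaling to kept probes turned 7 and ended 27. Those turned were TERC (0.20), SNORD65 (0.23) and SNORA26 (0.079) under Y15, and SNORD48 (0.18), SNORD12 (0.28), SNORD87 (0.14) and SNORA26 (0.023) under PF-04554878. Leaving out 1 array ended 17 to 38 of the 208 and turned none, and neqc ended 6. Deviations of arrays with the same replicate number correlated at -0.28 to 0.21, which does not settle whether the numbers pair the samples. A replicate block gave 52 higher and 10 lower under Y15, 61 and 12 under PF-04554878, and 32 and 35 between the compounds, and it ended 7 of the 208 calls. These were SNORD13 under Y15, SNORA12 and SNORD114-2 under PF-04554878, and SNORD110, SNORD3D, SNORA61 and SNORD114-2 between the compounds. With the Y15 numbers crossed, tried after the data had been seen, the counts were 56 and 10, 65 and 12, and 33 and 41.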
